A study of Mus musculus with 6 samples.

Results

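The protocadherin genes of murine oviductal epithelial (MOE) cells were described here, taken as every entry whose symbol begins with Pcdh in the expression tables of this series. There were 35 such genes among 22800 symbols, 23 of them from the clustered families and 12 non-clustered. RNA came from 1 cell line established from the pooled oviducts of 8-week-old female outbred CD1 mice, sampled as MOE LOW at passages 8, 9 and 10 and, after serial passaging of the same line, as MOE HIGH at passages 90, 103 and 113. The labels name neither an introduced gene nor a treatment, and each passage gave 1 library of total RNA. The comparison asked which genes differed after long passage of the line, and its p-values measured only the spread between passages of this single line. The heading over the values in each file disagreed with its record. In 5 of 6 files it named another passage, for 3 of them a passage of the other group, and in 1 it named none. In all 6 it was the name that stands just before the passage of the record when the headings are sorted alphabetically. Libraries were taken from the records. For the groups, the paper on these data lists Acta2 and Tagln as lower and Cdh16 as higher in MOE HIGH, the directions also found here by the records. Which of the 2 labels gives the right passage within a group was not stated by any source used here. By the records, Pearson's r of log2(FPKM + 1) across the 22800 symbols was 0.988 to 0.994 for the 6 pairs of libraries within a group and 0.934 to 0.947 for the 9 pairs between groups, a description over genes that are not independent.

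Protocadherins are the largest branch of the cadherin superfamily, single-pass membrane proteins whose extracellular cadherin repeats bind calcium and recognize like molecules on neighboring cells. The clustered alpha, beta and gamma genes lie in tandem on one chromosome, and a neuron chooses a few of their promoters, with the DNA-binding protein CTCF and cohesin joining a chosen promoter to distal enhancers. Alpha and gamma transcripts join a variable first exon to shared constant exons, whereas each beta gene is a single large exon. The non-clustered genes, most of them called delta protocadherins, stand alone in the genome and act in adhesion, cell sorting and cell movement in embryonic and adult tissues, and several of them are known for promoter methylation in carcinomas.

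In MOE HIGH the non-clustered protocadherins changed places. Pcdh7, Pcdh18 and Pcdh9 fell, Pcdh1 rose, Pcdh10 was listed at 0 in MOE LOW and rose to measurable values, and Pcdh19 did not pass the test. The 5 clustered genes that were high enough to test fell, with ratios of the MOE LOW to the MOE HIGH mean from 1.87 to 10.9, against 8.06 for Pcdh18, 11.2 for Pcdh9 and 542 for Pcdh7. Pcdh7 ended near 0 in MOE HIGH, so the size of its ratio is uncertain. Values are FPKM, fragments scaled to transcript length and to the number of mapped fragments. The 11621 genes whose mean over the 6 libraries reached 0.5 FPKM were tested by limma after taking log2(FPKM + 1), and Benjamini-Hochberg adjusted p-values (called adjusted p throughout, with SE for the standard error) were read at 0.05. Of the 35 protocadherins 11 passed this minimum, and of these 2 rose in MOE HIGH, 8 fell and 1 missed the threshold, where 24.3% of all genes tested were higher and 32.1% were lower. The groups did not overlap for 10 of the 11, higher for 2 and lower for 8, and this held for 28.5% (higher) and 35.5% (lower) of all genes tested. With quantile normalization of the libraries 56.7% of all calls were higher, against 43.1% as deposited. The minimum removed 24 protocadherins, and a gene that met it only through the group where it was high had to differ. This was so for 6 of the 11, since Pcdh7, Pcdh9, Pcdhb18, Pcdhb20 and Pcdhb22 had MOE HIGH means below 0.5 FPKM and Pcdh10 a MOE LOW mean below it, so the counts describe the members that passed and do not stand for the family.

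CpG at the gene starts are described for Pcdh10, which rose, and for Pcdh7, Pcdh9 and Pcdh18, which fell. These few genes were chosen by their calls, so their counts cannot tell whether CpG number goes with the direction of change. CpG dinucleotides are the sites of DNA methylation, and the sequences are shown because Pcdh7, Pcdh9 and Pcdh18 fell together and Pcdh10 rose. They are RefSeq sequences of build GRCm38 (the build called mm10) that end at or before the annotated gene start, written 5′ to 3′ on the strand of the gene, with every CpG in capitals.
Pcdh10 (chr3:45378148-45378397, plus strand): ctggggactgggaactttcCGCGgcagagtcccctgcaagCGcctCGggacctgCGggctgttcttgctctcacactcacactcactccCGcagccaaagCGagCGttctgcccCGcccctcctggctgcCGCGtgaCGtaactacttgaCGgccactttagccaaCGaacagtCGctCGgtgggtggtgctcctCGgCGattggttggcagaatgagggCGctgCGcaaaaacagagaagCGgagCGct
Pcdh18 (chr3:49757326-49757566, minus strand): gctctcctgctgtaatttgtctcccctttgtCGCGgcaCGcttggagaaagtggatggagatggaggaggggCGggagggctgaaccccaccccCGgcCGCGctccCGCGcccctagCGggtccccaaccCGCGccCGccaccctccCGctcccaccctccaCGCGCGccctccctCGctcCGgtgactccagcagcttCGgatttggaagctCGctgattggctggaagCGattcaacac
Pcdh9 (chr14:93890680-93890929, minus strand): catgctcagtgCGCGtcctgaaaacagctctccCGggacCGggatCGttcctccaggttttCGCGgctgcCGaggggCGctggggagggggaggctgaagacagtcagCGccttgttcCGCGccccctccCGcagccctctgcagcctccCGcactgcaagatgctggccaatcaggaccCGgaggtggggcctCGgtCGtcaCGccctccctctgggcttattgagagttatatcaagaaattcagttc
Pcdh7 (chr5:57717831-57717966, plus strand): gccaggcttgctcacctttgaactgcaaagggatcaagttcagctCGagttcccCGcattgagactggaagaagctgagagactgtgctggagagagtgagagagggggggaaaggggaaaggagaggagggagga
In the 250 bases before the RefSeq start, Pcdh10 had 22 CpG, Pcdh18 had 23 and Pcdh9 had 18. As many CpG as in Pcdh10 were present in 14.6% of 27025 promoters, against 13% for Pcdh18 and 21.6% for Pcdh9. Pcdh7 had 7 CpG in its window, a number reached by 46.5% of promoters. The GENCODE gene begins inside the window for 2 of these genes, so the first 136 bases with 2 CpG are shown for Pcdh7 and the first 241 bases with 22 CpG for Pcdh18. Promoters were found for 9 of the 12 non-clustered genes, and 8 of the 9 had at least the median of 6 CpG over all promoters, among them Pcdh19 with 16 and Pcdh17 with 21. The table gave no promoter for Pcdh1, and no methylation was measured.

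Pcdh7 had the largest change of the family. The gene encodes a delta-1 protocadherin and lies on chromosome 5 of mm10 from 57717967 to 58133230 (ENSMUSG00000029108.14). It was at 18.8, 16.5 and 20.1 FPKM in MOE LOW and at 0.0316, 0.0286 and 0.0420 FPKM in MOE HIGH. All MOE HIGH libraries lay far below all MOE LOW libraries, and the spread within each group was small beside the gap. The mean fell from 18.5 ± 1.85 FPKM (SD, n = 3 passages) to 0.0341 ± 0.00700 FPKM, a ratio of means of 542. MOE HIGH minus MOE LOW was -4.23 on the log2 scale (SE 0.11, adjusted p = 1.6e-07), and on the log2(FPKM + 0.01) scale it was -8.72, because adding 1 FPKM understates the change of a gene that ends near 0. The MOE HIGH values lay below about 0.1 FPKM, where depth limits statements. Both 542 and -8.72 therefore show a fall to near 0 and give no exact size. Only 0.74% of the genes tested had a more negative log2 fold change than -4.23.

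Pcdh18, a delta-2 protocadherin gene, lies on chromosome 3 from 49743296 to 49757325 (ENSMUSG00000037892.13). It was at 10.9, 9.26 and 9.33 FPKM in MOE LOW and at 0.967, 0.537 and 2.15 FPKM in MOE HIGH. The groups did not overlap, and passage 113 was the highest of the MOE HIGH libraries. The mean fell from 9.82 ± 0.909 to 1.22 ± 0.836 FPKM (SD, n = 3 passages), a log2 difference of -2.35 (SE 0.24, adjusted p = 0.00012). Passage 113 left out, the MOE HIGH mean was 0.752 FPKM.

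Pcdh9, a delta-1 member, lies on chromosome 14 from 93013410 to 93890679 (ENSMUSG00000055421.8). It was at 4.94, 4.23 and 4.86 FPKM in MOE LOW and at 0.313, 0.305 and 0.636 FPKM in MOE HIGH, again without overlap. Its mean fell from 4.68 ± 0.390 to 0.418 ± 0.189 FPKM (SD, n = 3 passages), a ratio of means of 11.2 and a log2 difference of -2.01 (SE 0.13, adjusted p = 9.6e-06). Against a 2-fold change, where 7.80% of all genes tested were lower and 2.61% higher, Pcdh7, Pcdh9 and Pcdh18 were the protocadherins called lower, and 0 were called higher.

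**Figure D1:**
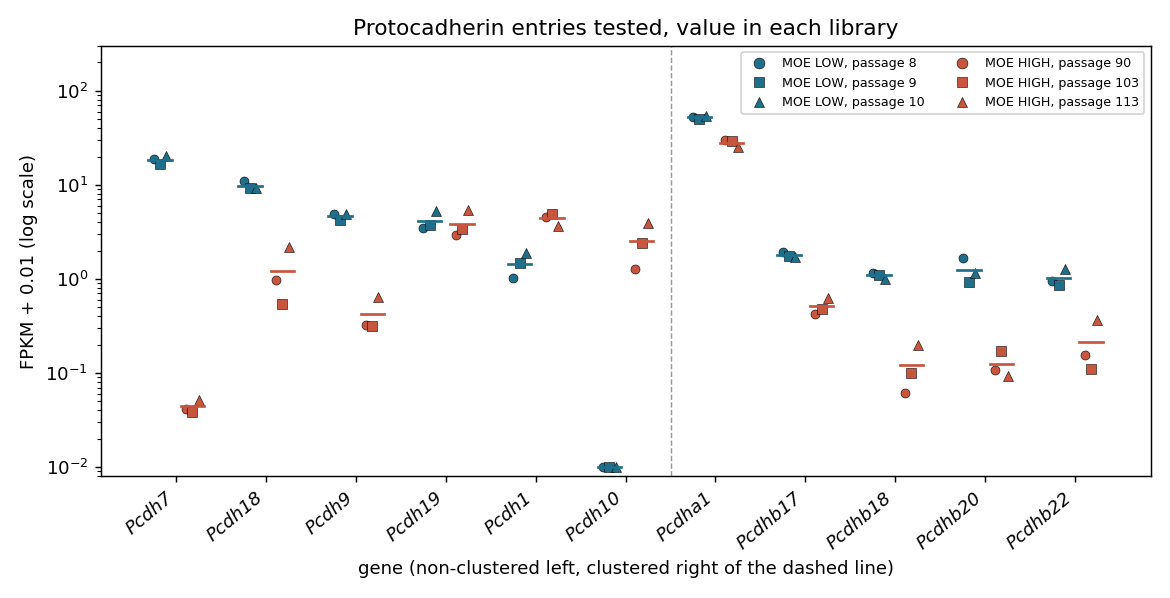
FPKM + 0.01 on a log axis for the 11 tested protocadherins, with 1 point for each library and a line at each group mean, so that a value of 0 sits at 0.01. Pcdh7 falls from 18.5 to 0.0341 FPKM, Pcdh10 leaves 0 in MOE HIGH, and the groups overlap for Pcdh19 and for no other gene shown.

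Most fibroblast and smooth muscle markers tested were lower in MOE HIGH, like the fallen protocadherins. In these bulk samples, fewer cells of a type and less RNA per cell cannot be told apart. Of 12 fibroblast and smooth muscle markers 10 were tested, 9 fell and 1 missed the threshold, beside 32.1% lower among all genes tested. The summed level of the 12 was 8403 to 12012 FPKM in MOE LOW against 36.0 to 45.7 FPKM in MOE HIGH. Acta2 fell from 4395 ± 650.1 to 5.74 ± 1.53 FPKM, Tagln from 4224 ± 938 to 6.39 ± 3.09 FPKM and Cnn1 from 391 ± 139 to 1.23 ± 0.330 FPKM (SD, n = 3 passages). The part of these cells or programs in the falls of Pcdh7, Pcdh9, Pcdh18 and the beta genes was not tested.

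Pcdh1 and Pcdh10 moved the other way. Pcdh1 encodes a delta-1 protocadherin known from airway epithelium, and lies on chromosome 18 from 38185914 to 38212053 (ENSMUSG00000051375.15). It was at 1.02, 1.45 and 1.86 FPKM in MOE LOW and at 4.58, 4.88 and 3.68 FPKM in MOE HIGH. Every MOE HIGH library was above every MOE LOW library, and the mean rose from 1.44 ± 0.422 to 4.38 ± 0.625 FPKM (SD, n = 3 passages). This was a ratio of means of 3.04 and a log2 difference of 1.15 (SE 0.16, adjusted p = 0.00056).

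Pcdh10 encodes a delta-2 protocadherin that links to actin regulation through the WAVE complex, and lies on chromosome 3 from 45378398 to 45435623 (ENSMUSG00000049100.15). Its value was 0 in each of the 3 MOE LOW libraries, against 1.28, 2.40 and 3.88 FPKM in passages 90, 103 and 113. The MOE HIGH values differed among themselves more than those of Pcdh1. The rise passed the test (adjusted p = 0.0006), and no fold is given against a group listed at 0. A listed 0 is not always an absence in these tables, since 43 genes had a 0 in some library although a library of the same group gave at least 5 FPKM.

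Pcdh19, a delta-2 member encoded on the X chromosome from 133582860 to 133688987 (ENSMUSG00000051323.16), was at 3.45, 3.71 and 5.31 FPKM in MOE LOW and at 2.89, 3.36 and 5.37 FPKM in MOE HIGH. The groups overlapped over most of their range, with the last passage of each group the highest. The means were 4.16 ± 1.01 and 3.87 ± 1.32 FPKM (SD, n = 3 passages), and the log2 fold change was -0.10 with a 95% interval from -0.59 to 0.40 (adjusted p = 0.72). A difference of the size seen for Pcdh1 or for Pcdh9 lay outside that interval.

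The remaining 6 non-clustered genes were near 0 in all libraries. Pcdh17 was at 0.0637, 0.0504 and 0.0314 FPKM in MOE LOW and listed at 0 in MOE HIGH. Pcdh11x, Pcdh15, whose protein forms the tip links of hair cells, and Pcdh20 were at 0.0257 FPKM or below in MOE LOW and listed at 0 in MOE HIGH. Pcdh12, the vascular endothelial protocadherin, reached 0.00851 FPKM in passage 103 and was listed at 0 in the other libraries, and Pcdh8 was listed at 0 in 6 of 6. No difference was detectable at such levels for Pcdh8, Pcdh11x, Pcdh12, Pcdh15 and Pcdh20.

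The make-up of the non-clustered group therefore turned over. The sets of genes summed below follow the calls, those that fell and those that did not. Opposite moves of their shares and sums therefore largely follow from that choice and are no further test. Summed over the 12 genes, the level was 39.2, 35.2 and 41.6 FPKM in MOE LOW and 10.1, 11.5 and 15.8 FPKM in MOE HIGH. Pcdh7, Pcdh9 and Pcdh18 made up 82.6% to 88.4% of that sum in MOE LOW against 7.56% to 18% in MOE HIGH. Pcdh1, Pcdh10 and Pcdh19 made up 11.4% to 17.3% in MOE LOW against 82% to 92.4% in MOE HIGH. The sum of those 3 genes was 4.46, 5.15 and 7.17 FPKM in MOE LOW and 8.75, 10.6 and 12.9 FPKM in MOE HIGH, so the larger share went with a higher level and not only with a smaller total.

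**Figure D2:**
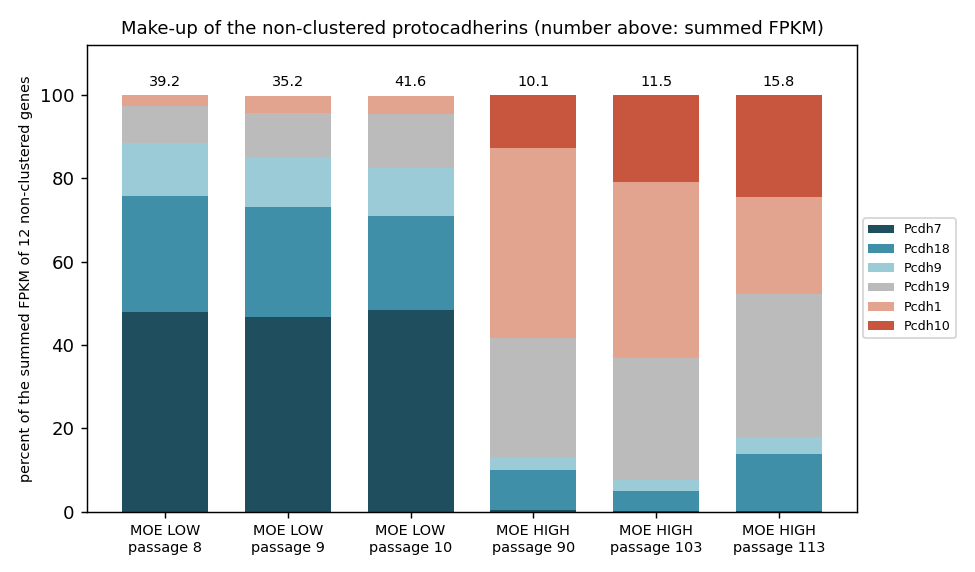
Percent of the summed FPKM of the 12 non-clustered protocadherins held by each of 6 genes in every library, with the summed FPKM above each bar. Pcdh7 holds 46.8% to 48.4% in the MOE LOW libraries and 0.248% to 0.315% in the MOE HIGH libraries, where Pcdh1 holds 23.3% to 45.5%.

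Levels of the listed entries can be ordered, because FPKM are per length, though no gamma gene had an entry. Among these entries Pcdh7 was second only to the alpha entry in MOE LOW, followed by Pcdh18, Pcdh9 and Pcdh19. The ranges of Pcdh9 (4.23 to 4.94 FPKM) and Pcdh19 (3.45 to 5.31 FPKM) overlapped, so those neighbors did not differ beyond their spread. In MOE HIGH the alpha entry was followed by Pcdh1 at 4.38 FPKM, Pcdh19 at 3.87 FPKM, Pcdh10 at 2.52 FPKM and Pcdh18 at 1.22 FPKM, each with a range that overlapped that of the next. Pcdh7 was the lowest of the 11 tested genes there, with a highest value of 0.0420 FPKM against a lowest of 0.0516 FPKM for Pcdhb18, the next gene.

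The clustered genes were listed unevenly. The files held all 22 beta genes but 1 entry, Pcdha1, for the 14 alpha genes of RefSeq, and no entry under the 22 gamma symbols. GENCODE annotates 3 genes that run from the alpha exons to the gamma exons on the same strand. Ugt1a, another family that joins variable first exons to shared ones, likewise had 1 entry for 9 symbols. Which alpha or gamma transcripts contributed to the entry called Pcdha1 cannot be told apart in these values, and it is called the alpha entry here.

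The alpha entry had the highest value of the listed protocadherin entries in both groups, while the gamma genes had no entry of their own to rank. It was at 53.1, 49.6 and 54.3 FPKM in MOE LOW and at 29.8, 29.0 and 25.4 FPKM in MOE HIGH. The groups were far apart beside their spread, and the mean fell from 52.3 ± 2.43 to 28.0 ± 2.34 FPKM (SD, n = 3 passages). The log2 difference was -0.88 (SE 0.10, adjusted p = 0.00021), with a 95% interval from -1.12 to -0.64. Pcdha1 lies on chromosome 18 from 36930184 to 37187661 (ENSMUSG00000103442.5).

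Beta expression in MOE LOW was concentrated at one end of the cluster. The 22 beta genes follow each other over 259.5 kb of chromosome 18 in the order of their numbers. Pcdhb1 to Pcdhb13 had MOE LOW means between 0 and 0.0903 FPKM, whereas Pcdhb14 to Pcdhb22, the 9 genes nearest the gamma cluster, had means between 0.1 and 1.80 FPKM. These 9 genes held 93.5% to 95.5% of the summed beta FPKM in the MOE LOW libraries. The split at Pcdhb14 lies where the MOE LOW means step up, so a large share follows from it and is a description only. Across the 22 genes, which share the same libraries and much of their sequence and are not independent, Spearman's rho between the order along the cluster and the mean level was 0.70 in MOE LOW and 0.52 in MOE HIGH.

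The 4 genes of that end that reached the minimum fell. Pcdhb17, the most abundant beta gene, was at 1.94, 1.75 and 1.69 FPKM in MOE LOW and at 0.415, 0.464 and 0.623 FPKM in MOE HIGH, without overlap. Its mean fell from 1.80 ± 0.132 to 0.5 ± 0.109 FPKM (SD, n = 3 passages), a log2 difference of -0.90 (SE 0.11, adjusted p = 0.00026). Pcdhb20 fell from 1.66, 0.909 and 1.16 FPKM to 0.0971, 0.160 and 0.0839 FPKM (log2 fold change -1.0, adjusted p = 0.00056).

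Pcdhb18 fell from 1.15, 1.10 and 0.995 FPKM to 0.0516, 0.0911 and 0.189 FPKM (log2 fold change -0.91, adjusted p = 0.00019). Pcdhb22 fell from 0.946, 0.845 and 1.26 FPKM to 0.145, 0.101 and 0.359 FPKM (log2 fold change -0.75, adjusted p = 0.0019). In these 4 genes the lowest MOE LOW library was above the highest MOE HIGH library. The MOE HIGH mean of Pcdhb18 went from 0.111 to 0.0713 FPKM and that of Pcdhb22 from 0.202 to 0.123 FPKM without the library of passage 113, and with quantile normalization the calls of Pcdhb18 (adjusted p = 0.054) and Pcdhb22 (adjusted p = 0.48) were lost.

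The ratio of the MOE LOW to the MOE HIGH mean was 3.59 for Pcdhb17, 5.04 for Pcdhb22, 9.75 for Pcdhb18 and 10.9 for Pcdhb20, although their log2 fold changes lay between -1.0 and -0.75, because all of them were at or below 2 FPKM, where adding 1 FPKM compresses a change. Without the library of passage 113 the ratios were 4.09, 8.25, 15.1 and 9.65 in the same order, so the order of Pcdhb18 and Pcdhb20 rested on that library. Pcdhb17 held 23.1% to 26% of the summed beta FPKM before long passage (MOE LOW) and 23.5% to 29.2% after it (MOE HIGH). The share of Pcdhb18 was 13.6% to 16.3% in MOE LOW against 3.55% to 7.15% in MOE HIGH, without overlap. The shares of Pcdhb19 (7.1% to 7.47% against 1.24% to 3.46%) and Pcdhb20 (13.5% to 20.3% against 3.16% to 10.1%) also fell without overlap.

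Several beta genes were below the minimum of 0.5 FPKM. With the minimum lowered to 0.1 FPKM, where 33.0% of 13086 genes were lower and 22.6% higher, 10 beta genes were tested, 7 of them were lower, 0 were higher and 3 did not pass the test. The added lower genes were Pcdhb16 (0.545 to 0.175 FPKM, adjusted p = 0.016), Pcdhb19 (0.540 to 0.0486 FPKM, adjusted p = 0.00056) and Pcdhb21 (0.491 to 0.106 FPKM, adjusted p = 0.0092). Pcdhb16 to Pcdhb22, 7 neighboring genes, were thus all lower in that fit. Pcdhb19 met this minimum only through MOE LOW, which fixed its direction. The MOE HIGH means of Pcdhb18 (0.111 FPKM), Pcdhb20 (0.114 FPKM) and Pcdhb21 lay just above it, so the run of neighbors is a description and no test. Without passage 113 the MOE HIGH means of the added genes were 0.103 FPKM for Pcdhb16, 0.0269 FPKM for Pcdhb19 and 0.0624 FPKM for Pcdhb21.

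The 3 genes that did not pass in that fit lay on both sides of 0. Pcdhb14 was at 0.330, 0.167 and 0.126 FPKM in MOE LOW and at 0.0399, 0.0273 and 0.0279 FPKM in MOE HIGH (adjusted p = 0.051). Its neighbor Pcdhb15, below this minimum too, was at 0.0412, 0.148 and 0.112 FPKM in MOE LOW and at 0.0336, 0 and 0.101 FPKM in MOE HIGH, and was the only gene from Pcdhb14 to Pcdhb22 whose groups overlapped. Pcdhb5 was at 0.0313, 0.0685 and 0.0423 FPKM in MOE LOW and at 0.134, 0.141 and 0.237 FPKM in MOE HIGH (adjusted p = 0.089). Pcdhb9 was listed at 0 in passage 8, was at 0.0495 and 0.101 FPKM in the other MOE LOW libraries and was at 0.223, 0.173 and 0.136 FPKM in MOE HIGH (adjusted p = 0.089).

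In a fit without any minimum, where 17.6% of 16525 genes were higher and 27.4% lower, Pcdhb5 and Pcdhb9 passed as higher (adjusted p = 0.017 and 0.024) and Pcdhb14 and Pcdh17 as lower (adjusted p = 0.026 and 0.025). Over all 22 beta genes, the groups did not overlap with MOE HIGH lower for 8 genes, all within Pcdhb14 to Pcdhb22, and with MOE HIGH higher for 2, Pcdhb5 and Pcdhb9. Pcdhb1 to Pcdhb13 had MOE LOW means of 0.0903 FPKM or below, which left them little room to fall. Among 16525 genes without a minimum, 33.1% did not overlap with MOE HIGH lower and 22.6% with MOE HIGH higher. The lowest value above 0 of any beta gene was 0.0113 to 0.0265 FPKM in the 6 libraries.

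The other genes from Pcdhb1 to Pcdhb13 were at 0.150 FPKM or below in all 6 libraries. Pcdhb1 and Pcdhb6 were listed at 0 throughout. Pcdhb1 to Pcdhb13 together held 4.54% to 6.54% of the summed beta FPKM in MOE LOW against 25.1% to 35.8% in MOE HIGH. The summed level of these 13 genes was 0.420, 0.440 and 0.333 FPKM in MOE LOW and 0.521, 0.508 and 0.664 FPKM in MOE HIGH, while that of Pcdhb14 to Pcdhb22 was 7.76, 6.29 and 7.0 FPKM in MOE LOW and 0.933, 1.08 and 1.99 FPKM in MOE HIGH. Beta genes are close copies of each other, and how fragments shared by several of them were divided was set by the authors' software.

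**Figure D3:**
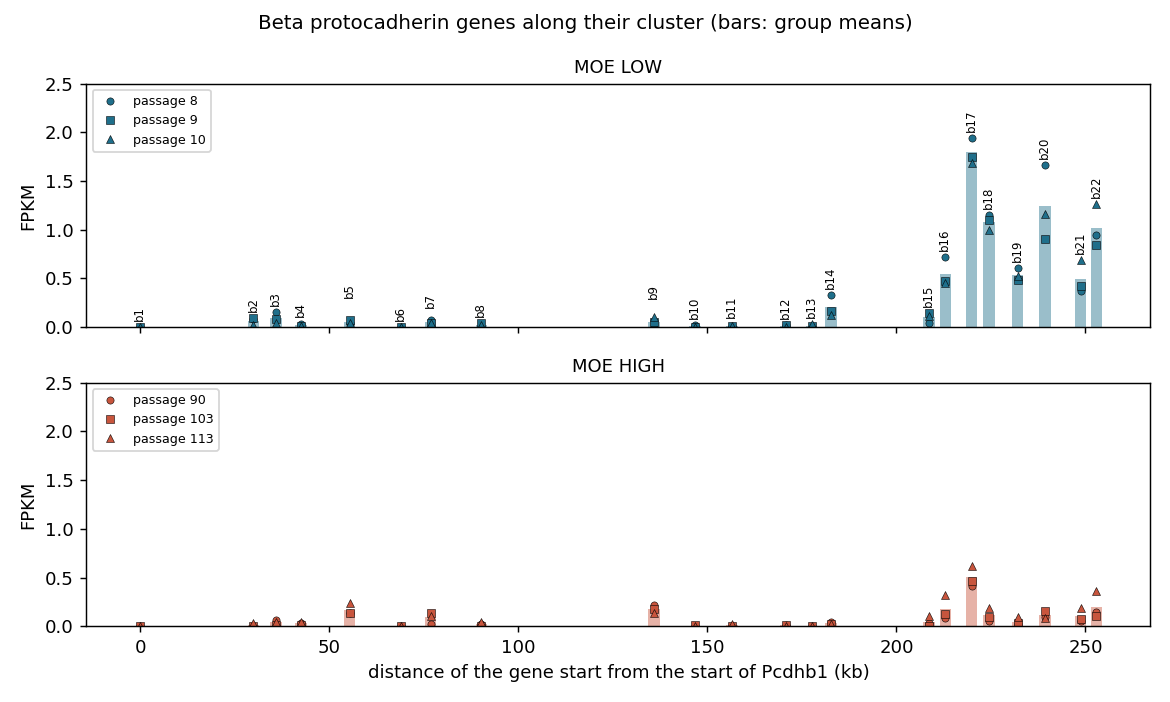
FPKM of the 22 beta protocadherin genes against the distance of each gene start from that of Pcdhb1 in kb, with bars for group means and 1 point for each library. In MOE LOW the signal sits in Pcdhb14 to Pcdhb22, with Pcdhb17 the highest at a mean of 1.80 FPKM, and in MOE HIGH it reaches 0.5 FPKM there.

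Of 5 clustered genes tested, 0 were higher and 5 were lower, beside 24.3% higher and 32.1% lower among all genes tested. For 3 of the 5 (Pcdhb18, Pcdhb20 and Pcdhb22) the minimum was met only through MOE LOW, which fixed their direction, and the same minimum left out Pcdhb5 and Pcdhb9, whose MOE HIGH values were the higher ones. The 5 had log2 fold changes from -1.0 to -0.75 and a median of -0.90. Of 6 non-clustered genes tested, 2 were higher, 3 fell and 1 missed the threshold, with log2 fold changes from -4.23 for Pcdh7 to 1.15 for Pcdh1 (none is given for Pcdh10, against 0) and a median of -1.05 over the 6, which is the same for any value of Pcdh10 above that of Pcdh19. The median over all genes tested was -0.05, and the middle 90% of them lay between -2.03 and 1.13. Of the protocadherins with a log2 fold change given, Pcdh7 and Pcdh18 lay below that range and Pcdh1 just above it, whereas the 5 clustered genes lay inside. The point of Pcdh10, set against values of 0, also lay above the range on this scale. For the 4 beta genes the added 1 FPKM sets part of this, since on the log2(FPKM + 0.01) scale Pcdhb18 and Pcdhb20 were both at -3.34, beside -3.53 for Pcdh9 and -3.22 for Pcdh18.

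**Figure D4:**
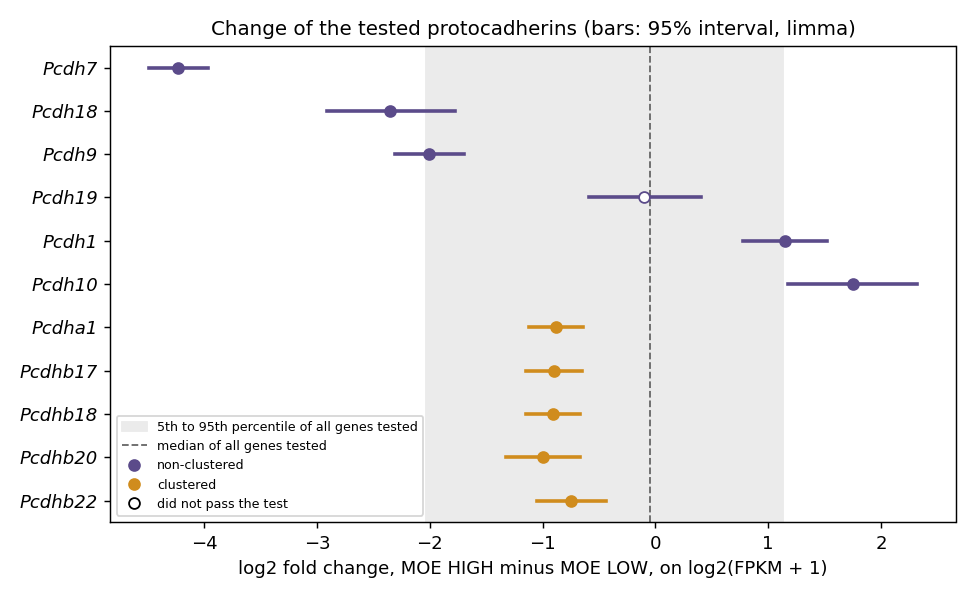
Log2 fold change of MOE HIGH against MOE LOW on the log2(FPKM + 1) scale for the 11 tested protocadherins, with 95% intervals from limma, over a grey band from the 5th to the 95th percentile of all genes tested. The 5 clustered genes lie between -1.0 and -0.75, while the non-clustered genes reach from -4.23 for Pcdh7 to above 0 for Pcdh1 and Pcdh10. The point of Pcdh10 is set against values of 0, depends on the added 1 FPKM and is no fold change.

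Genes beside the clustered locus did not share 1 direction. Of the 10 nearest tested genes on each side that are not protocadherins, 4 were higher, 5 fell and 11 missed the threshold. Among all genes tested 24.3% were higher and 32.1% lower, so these counts lay near the background. The median log2 fold change of the neighbors was 0.10, with a range from -1.36 to 1.48. Taf7, which lies between the beta and the gamma genes, was not called (log2 fold change 0.15, adjusted p = 0.40). Over the 269 tested genes of chromosome 18 the median log2 fold change was -0.12. Pcdh1, which rose, lies among the genes after the locus and is not in these counts.

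Regulators of clustered promoter choice passed the test in both directions. Of 23 such genes 21 were tested, 8 were higher, 2 fell and 11 missed the threshold, with a median log2 fold change of 0.29, beside 24.3% higher and 32.1% lower among all genes tested. The other two, Ctcfl and Tet1, were at 0.325 FPKM or below. The cohesin subunit gene Smc3 rose from 34.8 ± 1.49 to 88.7 ± 6.22 FPKM, the maintenance methyltransferase gene Dnmt1 from 35.2 ± 1.51 to 59.8 ± 1.97 FPKM and Ctcf from 22.7 ± 0.773 to 36.9 ± 4.37 FPKM (SD, n = 3 passages). Tet2, which encodes an enzyme that oxidizes methylated cytosine, fell from 2.49 ± 0.264 to 1.07 ± 0.429 FPKM and the neuronal gene repressor Rest from 8.23 ± 0.757 to 5.62 ± 1.26 FPKM.

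Other regulators did not pass. The cohesin subunit gene Rad21 was at 74.8 ± 6.5 and 91.0 ± 15.9 FPKM, Smchd1, which represses the clustered genes, at 12.4 ± 0.540 and 14.8 ± 5.06 FPKM, and the methyltransferase gene Dnmt3b, which marks their promoters, at 0.673 ± 0.208 and 0.513 ± 0.0831 FPKM. The number of higher regulators was 4 with equal summed FPKM or without the library of passage 8 or 9, and 5 without that of passage 10. The number of lower regulators was 4 without the library of passage 113 and 1 without any other single library.

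The measured genes of protocadherin shedding, proteases and their subunits, fell. ADAM10 sheds the extracellular part, and the gamma-secretase complex then releases the cytoplasmic part. Of 7 genes of this list 6 were in the tables and tested, 0 were higher and 6 were lower, with a median log2 fold change of -0.80, beside 32.1% lower among all genes tested. Adam10 fell from 47.0 ± 1.82 to 26.5 ± 5.35 FPKM, the catalytic subunit gene Psen2 from 12.8 ± 1.45 to 5.94 ± 0.432 FPKM and the nicastrin gene Ncstn from 52.0 ± 4.28 to 28.3 ± 0.163 FPKM (SD, n = 3 passages).

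Cytoplasmic partners passed the test in each direction. Of 18 genes 15 were tested, 3 were higher, 6 fell and 6 missed the threshold, with a median log2 fold change of -0.10, beside 24.3% higher and 32.1% lower among all genes tested. Ppp1ca and Set, which encode the phosphatase and the phosphatase inhibitor known to bind the Pcdh7 tail, both rose. Ppp1ca went from 345 ± 14.3 to 598 ± 38.8 FPKM, and Set from 208 ± 4.48 to 373 ± 30.7 FPKM (SD, n = 3 passages). Axin1, a scaffold of the Wnt pathway, rose from 17.2 ± 1.06 to 21.7 ± 1.56 FPKM.

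The kinase genes fell. Ptk2b, whose kinase is held in check by clustered protocadherins, fell from 15.3 ± 1.37 to 5.60 ± 1.57 FPKM, Fyn from 13.1 ± 1.20 to 4.83 ± 1.29 FPKM and the focal adhesion kinase gene Ptk2 from 37.0 ± 3.99 to 21.4 ± 1.74 FPKM (SD, n = 3 passages). Nckap1, a subunit of the WAVE complex, was listed at 0 in passages 8, 9 and 90 and at 87.4, 69.1 and 88.1 FPKM in passages 10, 103 and 113, so its values do not allow a comparison.

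Other cadherins were set beside the protocadherins. Of 12 other genes with Cdh symbols 5 were tested, 1 was higher, 3 fell and 1 missed the threshold, beside 24.3% higher and 32.1% lower among all genes tested. Most of the 12 are classical cadherins, but Cdh13, Cdh16 and Cdh17 lack the catenin-binding tail, and the gene that was higher is 1 of these. Cdh11, a cadherin of mesenchymal cells, fell from 51.5 ± 11.2 to 0.243 ± 0.0607 FPKM, Cdh6 from 20.2 ± 2.28 to 8.52 ± 3.09 FPKM and the N-cadherin gene Cdh2 from 125 ± 10.0 to 71.2 ± 13.3 FPKM, while the kidney-type cadherin gene Cdh16 rose from 0.361 ± 0.0319 to 52.7 ± 15.7 FPKM (SD, n = 3 passages). Of 17 genes of the Fat, Dachsous, flamingo and calsyntenin families and their relatives, 15 were in the tables and 5 were tested. Of these 1 was higher, 2 fell and 2 missed the threshold, beside the same shares of all genes tested. Fat1 fell from 179 ± 23 to 88.6 ± 16.6 FPKM and the calsyntenin gene Clstn1 rose from 38.8 ± 2.58 to 55.9 ± 4.12 FPKM. Fat4, named after its values were seen, fell from 1.29 ± 0.254 to 0.00548 ± 0.00293 FPKM.

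**Figure D5:**
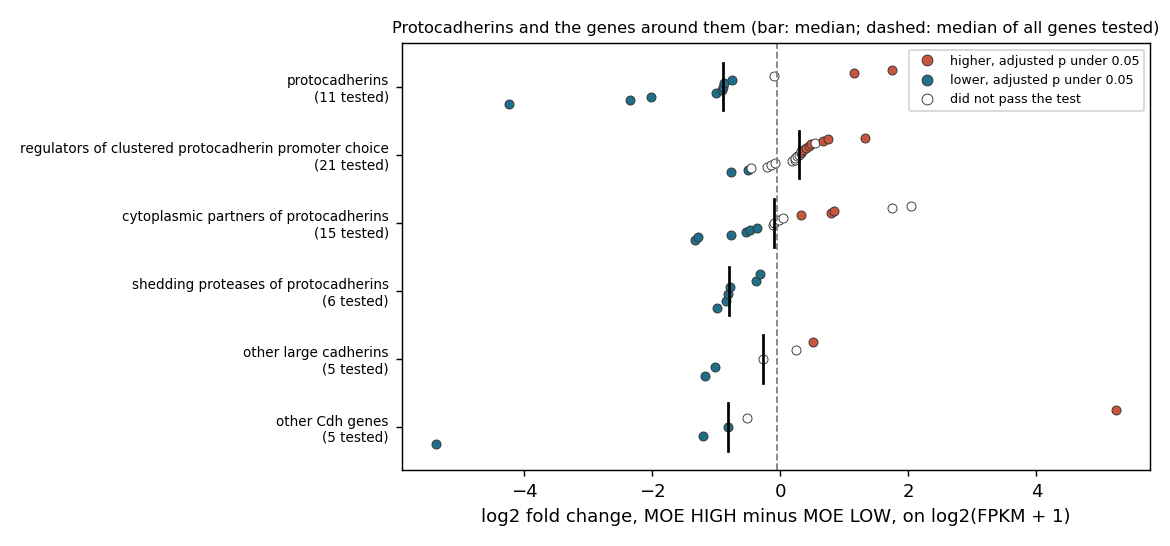
Log2 fold changes on the log2(FPKM + 1) scale for the tested genes of 6 lists, with 1 point for each gene, filled where it was called higher or lower at an adjusted p of 0.05, a bar at each median and a dashed line at the median of all genes tested. The 6 tested protease genes were lower, while the other lists held both directions, and the open points beyond 1.7 among the cytoplasmic partners are Nckap1 and Wasf2, each listed at 0 in some libraries.

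Neuronal, endothelial and ciliated cells were checked as well, beside 24.3% higher and 32.1% lower among all genes tested. Of 12 neuron and glia markers, summed at 21.6 to 23.9 FPKM in MOE LOW against 2.14 to 2.96 FPKM in MOE HIGH, 2 were tested and both fell, Tubb3 from 5.19 ± 1.29 to 1.38 ± 0.210 FPKM and Gap43 from 15.9 ± 1.55 to 0.833 ± 0.388 FPKM, and 4 (Rbfox3, Nefl, Sox10 and Gfap) were listed at 0 in all libraries. Of 8 endothelial markers, summed at 6.67 to 10.6 FPKM in MOE LOW against 0.00947 to 0.144 FPKM in MOE HIGH, 2 were tested and both fell, Kdr from 2.71 ± 0.889 to 0.00333 ± 0.00576 FPKM and Esam from a mean of 4.96 to 0.0529 FPKM. Cdh5, Tie1 and Erg were listed at 0 in all libraries, and Pecam1 was above 0 in passage 9 alone, at 0.0158 FPKM. Ciliated cell markers summed to 5.67 to 7.54 FPKM in MOE LOW against 8.45 to 10.1 FPKM in MOE HIGH over 7 genes. Of 5 tested, 3 were higher (Foxj1, Rfx2 and Rfx3) and 1 was lower (Rsph1, from a mean of 2.58 FPKM to a listed 0). Dnaic1 was listed at 0 throughout MOE HIGH, and Tekt1 was above 0 in passage 113 alone, at 0.0333 FPKM. The sum does not stand for a number of ciliated cells, and the paper reports loss of acetylated tubulin protein in MOE HIGH.

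The label of oviductal epithelial cells held in part. Pax8 was at 49.2 ± 5.04 and 45 ± 3.94 FPKM and Ovgp1 at 0.875 ± 0.187 and 0.887 ± 0.162 FPKM, and the epithelial list summed to 1517 to 1905 FPKM in MOE LOW against 2216 to 3418 FPKM in MOE HIGH. Of that list 2 of 6 tested genes, Krt18 and Msln, were higher and 0 were lower, beside 24.3% higher and 32.1% lower among all genes tested. Krt18 and Krt19 held most of the sum, so it does not describe the list as a whole. Krt18 went from 798 ± 25.3 to 2029 ± 531 FPKM. Krt19 (850.2 and 663 FPKM) and Krt8 (47.1 and 40.6 FPKM) were lower in the MOE HIGH mean but were not called. The junction genes Cdh1, Epcam and Cldn7 were at means of 0.0552 FPKM or below, and Cldn3 was listed at 0 in all libraries.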

How the data were processed

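Total RNA of 6 passages was depleted of ribosomal RNA and sequenced as strand-specific libraries. Alignment by the authors was to mm10 and used TopHat2 2.0.8b. Expression of UCSC gene annotations was then given as FPKM, with Cuffdiff 2.1.1 in the submitters' processing notes, and the deposited FPKM were used as they stand. In 6 of 6 files the heading over the values conflicted with the sample record, in 3 of them by naming a passage of the other group, and each library was taken from its record. Members were all symbols beginning with Pcdh, and none had more than 1 entry.

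MOE HIGH was set against MOE LOW in R 4.3.3 by limma 3.58.1 with a variance trend. Its input was log2(FPKM + 1) of all genes whose mean reached 0.5 FPKM, and p-values were adjusted over all of them. Summaries used Python 3.11.15, pandas 2.3.3, numpy 2.4.6 and scipy 1.17.1. Fits were tested on simulated data. Summed FPKM were 597161 to 770438 per library. Absolute depth is unknown from FPKM. The lowest values put 1 fragment, relative to passage 8 on the log2 scale, at -0.35 to -0.15 in the other libraries. With 3 libraries against 3, an exact permutation test can give no p below 0.1 and was not used.

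Positions came from GENCODE M21 and promoters from RefSeq, both GRCm38. Named genes were every tested protocadherin, up to 3 called genes for each list and direction averaging 1 FPKM or more, and the defining gene of a list. Some marker genes that were not called were named as well, to show what a sum or count leaves out. The members and lists were chosen with earlier results of these data known. Alternatives changed the pseudocount, minimum, scaling, threshold, variance trend, replicate block, entries per symbol and libraries.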

Additional observations from a re-analysis of the deposited data

How the results depend on the processing

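The direction and call of Pcdh7, Pcdh9 and Pcdh18 held in each alternative run that tested them. Pcdh9 was not tested at a mean of at least 5 FPKM. Of 201 fits of the 11 tested protocadherins, 189 kept direction and call, 9 lost the call and 3 turned the sign, all of Pcdh19 (0.18 with quantile normalization, 0.06 without the library of passage 10 and 0.05 without that of passage 90, within -0.31 to 0.06 over fits that left out 1 library). Quantile normalization moved the median of all genes to 0.10, and 3 clustered genes were then lower. Against a 2-fold change, 303 genes were higher and 907 lower, with 0 protocadherins higher and 3 lower, 0 of them clustered. It left 0 regulators, 0 partners, 0 proteases and 0 large cadherins in either direction, with 1 higher and 1 lower of the other Cdh genes. Without a minimum, 4 protocadherins were higher (2 clustered) and 13 lower (9 clustered), 5 regulators were higher, and 2 large cadherins were higher and 4 lower. At a mean of at least 0.1 FPKM, 8 clustered genes were lower and 2 large cadherins higher. At a mean of at least 5 FPKM, 2350 genes were lower, 0 protocadherins were higher and 3 lower (1 clustered), and 1 regulator and 1 large cadherin were lower. Of the regulators, 4 were higher and 1 lower at equal totals, 3 and 1 at an adjusted p of 0.01, and 0 were lower with quantile normalization. Leaving out 1 library gave 4 to 9 higher and 1 to 4 lower regulators. Each such fit called 2 protocadherins higher and 8 lower.

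The replicate numbers paired no passages by design, and deviations of same-numbered libraries correlated at -0.02, -0.15 and 0.12. With the replicate number as a block, 2967 genes were higher and 3839 lower, and 2 protocadherins were higher and 8 lower. Not every library correlated best with its own number. Depth limits statements on genes below about 0.1 FPKM, and 43 genes with listed zeros beside high values limit what a 0 means.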
